A study of Mus musculus with 20 samples.

Results

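The comparison described here set exercised gastrocnemius, a calf muscle of the mouse, with the skeletal muscle Bmal1 knockout treatment against exercised gastrocnemius given vehicle. Its members were the 10 libraries of exercised animals among the 20 libraries of the series, 5 labelled Vehicle + Exercise and 5 labelled iMSBmal1KO + Exercise, chosen by their labels and not by any measured value. Every animal, controls included, had the genotype Cre+:iMSBmal1 fl/fl, so both groups carried Cre and the floxed alleles and differed by the agent given. The muscle was collected 1 h after 30 min of treadmill running, and the time label of both groups is ZT13, zeitgeber time being counted from lights on. The promoter that drives Cre, the inducing agent, the interval between induction and exercise, the age of the animals and whether samples were pooled are not given in the sources used here. The columns of the knockout-labelled samples speak of training in their description, whereas titles and treatment labels speak of acute exercise, and they were read as acute exercise. The other 10 libraries, of animals that did not run, carried the same genotype and agents (5 vehicle, 5 knockout-labelled) and are used only to set the difference at rest beside the difference after exercise.

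BMAL1, encoded by Arntl, pairs with CLOCK or NPAS2 to bind E-boxes and drive the genes of the circadian clock. Its targets include the Per and Cry repressors, which close the main feedback loop, the nuclear receptors Nr1d1 and Nr1d2, which repress a further set of clock genes, and the PAR bZIP factors Dbp, Tef and Hlf, which act through D-boxes. In skeletal muscle this clock is known for timing genes of glucose uptake and fuel use, and a bout of running itself switches on early response genes within the hour.

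Total counts of the exercised libraries ran from 8202810 to 11269812, with a median of 9349060. Levels below are counts per 1000000 (CPM) after trimmed-mean scaling, mean ± SD over 5 libraries, and log2 ratios are log2 fold changes of knockout-labelled over vehicle from edgeR's quasi-likelihood test with its standard error (SE) and an adjusted p over all 13560 genes tested. A gene was called at an adjusted p under 0.05. The labels do not say that samples came from separate animals, so p-values measure the spread between these samples, which may be technical. The 7 skeletal muscle markers, Acta1 and Ckm among them, summed to 101805 to 152751 CPM in vehicle and 120665 to 175429 CPM in knockout-labelled libraries, and 0 of them were called. In bulk muscle, fewer cells of a type and less RNA per cell cannot be told apart.

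The slow-fibre markers varied widely within both groups. The sum of 9 markers, such as Myh7 and Tnnt1, ran from 44.7 to 2776 CPM in vehicle and from 64.6 to 2754 CPM in knockout-labelled libraries. Their mean log2 CPM was 4.68 ± 3.23 in vehicle and 4.50 ± 3.07 in knockout-labelled muscle, an exact permutation p of 0.921. The score was low in vehicle replicate 2 (0.03) and in knockout-labelled replicates 2 (1.42) and 4 (1.14). These 3 libraries were singled out after seeing the data, and results are given with and without them where the call changed. Vehicle replicate 4 was the next lowest, with a score of 2.79 and a marker sum of 111 CPM. It was not left out with the 3, so a vehicle library with little slow-fibre RNA remains in that fit. The summed blood markers ran from 52.9 to 354 CPM in vehicle and from 49.0 to 143 CPM in knockout-labelled libraries, and 1 of 5 markers, Hba-a2, was called lower. Their part in the results was not tested. No member of the marker lists for fat, nerve, endothelium, macrophages, T cells, fibroblasts, satellite cells, smooth muscle and pericytes or tendon was called. The 4 neutrophil markers did not pass the count filter. Of the 4 T cell markers, 3 did not pass it either, among them Cd3d with 0 counts in the exercised libraries. Only Cd3e was tested, at 2 to 20 counts per exercised library, so the T cell result rests on that gene.

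The targeted gene was read first. Arntl stood at 7.90, 17.9, 9.15, 21.4 and 15.1 CPM in vehicle replicates 1 to 5 and at 11.5, 15.5, 21.2, 20.1 and 13.8 CPM in knockout-labelled replicates 1 to 5. The ranges overlapped, and the log2 ratio was 0.20 (SE 0.23, adjusted p 0.689). The exact two-sided permutation p was 0.429, or 0.686 adjusted over 16 single values. The gene-level count therefore did not separate the groups, and directions below rest on the labels. Which exons the knockout removes is not given in the sources used here, so a count over the whole gene may not check the deletion. An exon of Arntl is overlapped by the opposite-strand gene Gm45355, and strand was not stated to be used in counting.

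After exercise, 870 of 13560 genes were called, 6.42% of those tested, of which 362 (2.67%) were higher in the knockout-labelled group and 508 (3.75%) were lower, as percentages of all genes tested. The median log2 ratio over all tested genes was 0.01. Among the called genes the median size was 0.64 on the log2 scale, and 217 genes changed by at least 1, 72 of them higher and 145 lower. The ranges of the 5 vehicle and 5 knockout-labelled libraries did not overlap for 853 genes (6.29%), and 600 of the 870 called genes were among them. The split between higher and lower calls depended on scaling: with library size as the only scaling, 845 genes were called, 449 higher and 396 lower, so the higher share was 53.1% instead of 41.6%. The count was 1416 with the slow-fibre score as a covariate, 567 when only the 10 exercised libraries entered the model and 411 without the 3 libraries poor in slow-fibre RNA.

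The 12 largest rises had log2 ratios from 1.72 to 3.66. Cdkn1a, which encodes the cell cycle inhibitor p21, stood at 12.8, 13.8, 13.8, 17.7 and 14.9 CPM in vehicle and at 88.2, 122, 117, 167 and 112 CPM in the knockout-labelled group. The lowest knockout-labelled library was far above the highest vehicle library, and the log2 ratio was 3.05 (SE 0.19, adjusted p 1.07e-09). Tead4, a transcription factor of the Hippo pathway, stood at 12.4, 6.71, 8.50, 12.5 and 7.59 CPM in vehicle and at 35.2, 40.5, 40.9, 43.2 and 36.7 CPM in the knockout-labelled group, without overlap (log2 ratio 2.04 with an SE of 0.16 and an adjusted p of 1.82e-08). Prss55, a serine protease gene, had only 5 to 13 counts per vehicle library, and its level went from 0.993 ± 0.404 to 12.6 ± 3.17 CPM (log2 ratio 3.66). Igf2bp2, an RNA-binding protein gene named for its binding of Igf2 transcripts, had 5 to 11 counts per vehicle library and went from 0.786 ± 0.270 to 5.37 ± 1.40 CPM (log2 ratio 2.76). The size of the Prss55 and Igf2bp2 rises is therefore imprecise.

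Gpc4, a cell-surface heparan sulfate proteoglycan, had the smallest SE of the 12 rises, and stood at 12.4, 12.5, 12.6, 12.1 and 14.9 CPM in vehicle and 41.3, 46.9, 42.6, 54.9 and 33.7 CPM in the knockout-labelled group (log2 ratio 1.76 with an SE of 0.11 and an adjusted p of 5.46e-10). Wsb1, an adaptor of a ubiquitin ligase, stood at 7.80, 7.97, 7.85, 13.6 and 7.78 CPM in vehicle and at 27.5, 41.3, 24.9, 62.4 and 20.4 CPM in the knockout-labelled group (log2 ratio 1.97 with an SE of 0.25 and an adjusted p of 5.08e-05). Ttll7, a tubulin glutamylase, stood at 146.7, 278.7, 111.7, 221.4 and 223.8 CPM in vehicle and at 532.8, 881.8, 515.2, 1180 and 456 CPM in the knockout-labelled group (log2 ratio 1.86). For Wsb1 and Ttll7 the highest values were in knockout-labelled replicates 4 and 2, which were the libraries low in slow-fibre RNA. Both stayed called without the 3 such libraries, at log2 ratios of 1.39 (adjusted p 6.96e-05) and 1.51 (adjusted p 0.00256). Pla2g7, the secreted platelet-activating factor acetylhydrolase, had a log2 ratio of 1.72 (adjusted p 0.00293) and lost its call without those 3 libraries (adjusted p 0.0789). It overlaps an exon of another gene, 1700071M16Rik. The remaining rises among the 12 largest were Fam110b (2.04), Gstm7 (1.89), Gramd1b (1.85) and Auts2 (1.77), and Gstm7 belongs to a family of similar glutathione S-transferase genes among which reads can be split.

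The 12 largest falls had log2 ratios from -3.27 to -2.13. Slc2a3, the glucose transporter GLUT3, stood at 10.5, 27.1, 9.04, 13.3 and 26.4 CPM in vehicle and at 1.39, 2.7, 1.09, 1.08 and 2.40 CPM in the knockout-labelled group, where libraries held 8 to 28 counts (log2 ratio -3.27 with an SE of 0.44 and an adjusted p of 0.000131). Slc25a30, a mitochondrial carrier gene, went from 44.5 ± 14.2 to 6.14 ± 1.43 CPM without overlap (log2 ratio -2.85 with an SE of 0.31 and an adjusted p of 1.38e-05). Car3, the muscle carbonic anhydrase, was the most abundant of the 12 falls, at 998, 1581, 1203, 1655 and 1592 CPM in vehicle and at 272.1, 172.5, 240.1, 248.6 and 359 CPM in the knockout-labelled group. The groups did not overlap (log2 ratio -2.44 with an SE of 0.18 and an adjusted p of 1.14e-08). Mid1ip1, a regulator of fatty acid synthesis, stood at 51.0, 41.4, 55.5, 40.3 and 40.2 CPM in vehicle and at 13.8, 2.7, 10.5, 1.62 and 14.4 CPM in the knockout-labelled group (log2 ratio -2.38 at an adjusted p of 0.00135). Its lowest values were in knockout-labelled replicates 4 and 2, and it shares exon sequence with the neighbouring gene Gm14493. Without the 3 libraries poor in slow-fibre RNA its log2 ratio was -1.85 (adjusted p 0.000732).

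Cntfr, a receptor subunit for ciliary neurotrophic factor, went from 31.5 ± 14.9 to 6.05 ± 0.960 CPM (log2 ratio -2.37 at an adjusted p of 5.62e-05). Ces1d, a carboxylesterase that cleaves lipid esters and belongs to a cluster of similar genes, went from 20.6 ± 7.19 to 2.99 ± 1.32 CPM (log2 ratio -2.78). Dkk3, a secreted protein of the Dickkopf family, had a log2 ratio of -2.22 (adjusted p 0.00673) and was not called without the 3 libraries poor in slow-fibre RNA (adjusted p 0.0662). Tmem132b, a membrane protein gene, and Cyp2t4, a cytochrome P450 gene, had log2 ratios of -2.50 and -2.31, at 4 to 18 counts and 6 to 19 counts per knockout-labelled library. Cyp2t4 overlaps an exon of Egln2. Dbp, Junb and Ciart complete the 12 largest falls and are described with their groups. The plot of levels by library shows these 24 genes.

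**Figure D1:**
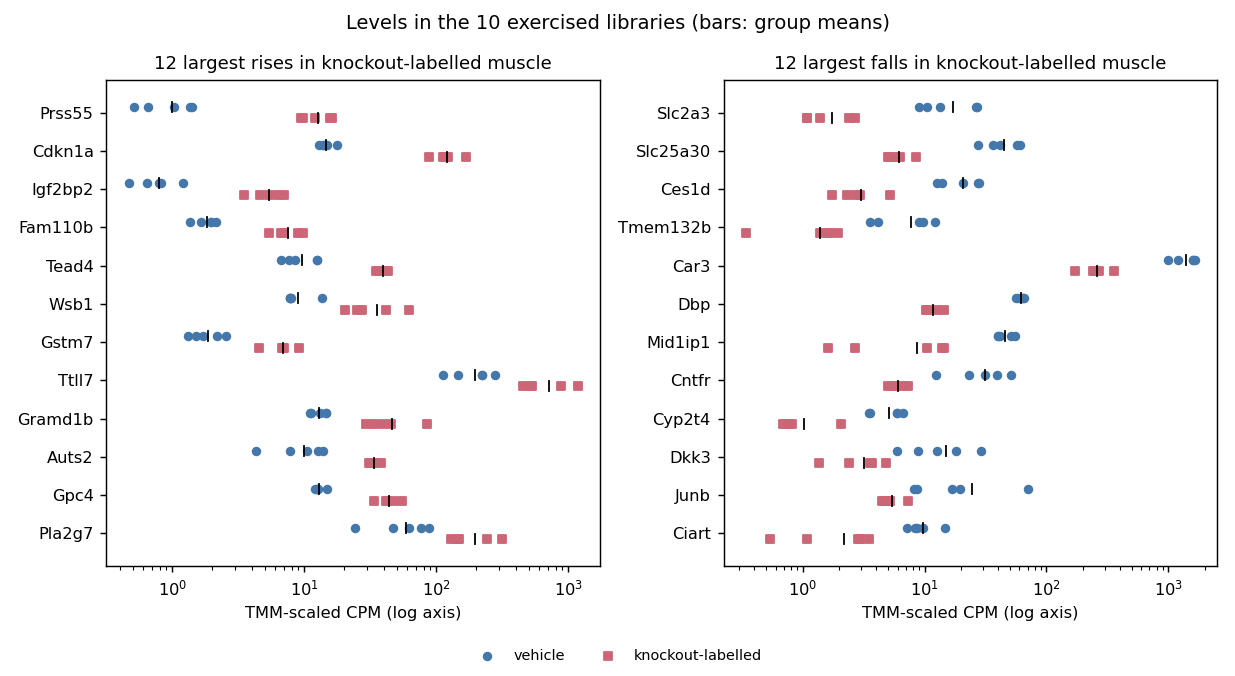
Levels of the 12 largest rises (left) and 12 largest falls (right) by log2 ratio in the 5 vehicle libraries (circles) and 5 knockout-labelled libraries (squares) after exercise, as TMM-scaled CPM on a log axis, with vertical bars at the group means. The 2 groups do not overlap for any of the 24 genes, which the naming rule requires. Car3 is the most abundant of the falls, at 1406 ± 289 and 258 ± 67.3 CPM.

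Most clock genes driven by BMAL1 were lower. Of 12 genes that BMAL1 and CLOCK are known to activate, 8 were called lower and 0 higher, with a median log2 ratio of -0.92, where 3.75% of all tested genes were called lower. Dbp stood at 64.4, 63.5, 58.7, 56.0 and 64.8 CPM in vehicle and at 12.6, 10.4, 10.5, 10.5 and 14.3 CPM in the knockout-labelled group, with the smallest adjusted p of the members named here (log2 ratio -2.39 with an SE of 0.10 and an adjusted p of 2.62e-13). An exon of Sphk2 overlaps Dbp. Nr1d2 went from 95.5 ± 9.62 to 31.5 ± 8.83 CPM (log2 ratio -1.60), and Tef from 303 ± 12.8 to 149 ± 11.4 CPM (log2 ratio -1.02 with an SE of 0.08 and an adjusted p of 2.62e-08). Ciart, a repressor in the feedback loop, had 14.7, 8.42, 8.61, 7.12 and 9.65 CPM in vehicle and 3.47, 1.08, 2.95, 0.540 and 2.83 CPM in the knockout-labelled group (log2 ratio -2.13 at an adjusted p of 0.0013). The other 4 called lower were the deubiquitinase gene Usp2 (-1.16), the bZIP gene Hlf (-0.93), and the period genes Per2 (-0.91) and Per3 (-0.84). Per3 lost its call without the 3 libraries poor in slow-fibre RNA (adjusted p 0.17), which left 7 of the 12 called. Nr1d1, Per1, Bhlhe40 and Bhlhe41 were not called, with log2 ratios of 0.29, -0.80, -0.48 and -0.18. Exons of Nr1d1, Bhlhe40 and Bhlhe41 overlap exons of an opposite-strand gene, which is Thra for Nr1d1. Their counts may include its reads, so the Nr1d1 value may not show a change in Nr1d1 alone. At rest, 10 of these 12 clock genes were called lower and 0 higher, with a median log2 ratio of -1.21. Of all tested genes, 2.06% were called lower at rest.

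Promoter windows of 3 of these genes and of Wsb1 are shown because they hold the letters that BMAL1 with CLOCK (E-box, CACGTG) or DBP, TEF and HLF (D-box, TTATGTAA or TTACGTAA) are known to bind. The windows run from 250 bases before to 50 bases after the start of a RefSeq gene of build GRCm38.p6, are given 5′ to 3′ on the gene's strand, and have the motif in capitals. The motifs were searched on both strands and do not overlap each other. Ciart lies on the minus strand at chr3:95882179-95882478 and holds 3 E-boxes. Per3 lies on the minus strand at chr4:151044616-151044915 and holds 2 D-boxes. Tef lies on the plus strand at chr15:81811164-81811463 and holds 1 E-box. Wsb1, which was higher in knockout-labelled muscle, lies on the minus strand at chr11:79254646-79254945 and holds 2 E-boxes.
Ciart: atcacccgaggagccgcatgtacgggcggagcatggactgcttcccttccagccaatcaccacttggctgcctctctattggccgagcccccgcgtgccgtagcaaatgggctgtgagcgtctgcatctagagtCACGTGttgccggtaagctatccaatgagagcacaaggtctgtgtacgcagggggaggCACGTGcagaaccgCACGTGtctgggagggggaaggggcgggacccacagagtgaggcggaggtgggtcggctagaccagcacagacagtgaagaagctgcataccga
Per3: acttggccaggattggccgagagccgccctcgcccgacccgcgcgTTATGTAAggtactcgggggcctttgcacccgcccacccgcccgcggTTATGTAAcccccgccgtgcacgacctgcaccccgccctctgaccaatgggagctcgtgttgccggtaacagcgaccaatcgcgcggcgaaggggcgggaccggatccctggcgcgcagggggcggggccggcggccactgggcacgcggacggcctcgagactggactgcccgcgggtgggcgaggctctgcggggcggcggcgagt
Tef: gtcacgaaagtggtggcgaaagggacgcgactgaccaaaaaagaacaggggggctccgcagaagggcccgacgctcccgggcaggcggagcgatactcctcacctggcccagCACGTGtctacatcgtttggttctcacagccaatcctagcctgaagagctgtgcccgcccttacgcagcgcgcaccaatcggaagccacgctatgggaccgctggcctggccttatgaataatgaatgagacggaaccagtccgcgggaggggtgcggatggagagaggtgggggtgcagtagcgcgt
Wsb1: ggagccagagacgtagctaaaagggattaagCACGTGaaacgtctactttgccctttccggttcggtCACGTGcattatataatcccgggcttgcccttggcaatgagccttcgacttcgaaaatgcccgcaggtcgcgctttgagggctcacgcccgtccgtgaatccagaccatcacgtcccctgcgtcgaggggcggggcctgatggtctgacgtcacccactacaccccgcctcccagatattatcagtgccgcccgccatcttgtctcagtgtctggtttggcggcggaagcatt
Over all tested genes, 12471 windows of 9723 genes were matched by symbol, and 9.81% of them held an E-box. The share was 12.8% of the 500 windows of genes called lower and 9.33% of the 386 windows of genes called higher. A D-box was in 0.674% of all windows, in 2% of those of genes called lower and in 0 of those of genes called higher. The windows shown were picked for their motifs, and other clock genes differed. The windows of Dbp, Nr1d2, Hlf and Usp2, all called lower, held neither motif. A window of Per1 and that of Bhlhe41, which were not called, held 1 E-box each, as did that of Cry1, which was called higher. These are matches of letters in a short window, they say nothing about binding, and they were not tested.

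Of 5 clock genes that are known to be repressed by NR1D1 and NR1D2 or to peak opposite to their targets, 3 were called higher and 0 lower, at a median log2 ratio of 0.49. Of all tested genes, 2.67% were called higher and 3.75% lower. Clock stood at 13.5, 14.1, 15.9, 16.5 and 15.6 CPM in vehicle and at 40.0, 39.2, 34.7, 47.9 and 31.4 CPM in the knockout-labelled group, without overlap (log2 ratio 1.35 with an SE of 0.13 and an adjusted p of 3.01e-07). Npas2, its paralogue, had 1 to 6 counts per vehicle library and went from 0.410 ± 0.245 to 3.23 ± 1.21 CPM (log2 ratio 2.97 at an adjusted p of 5.95e-05). Cry1, a repressor of the loop, went from 14.5 ± 1.57 to 20.3 ± 2.33 CPM (log2 ratio 0.49 at an adjusted p of 0.00307). Nfil3 was not called after exercise (0.12). At rest, 4 of these 5 genes were called higher and 0 lower, with a median log2 ratio of 1.34, where 1.8% of all tested genes were called higher. Among 7 further clock genes 3 were called lower after exercise and 0 higher: Cry2 (-0.83), Rora (-0.59) and the kinase gene Csnk1e (-0.34). Rora was not called without vehicle replicate 2 (adjusted p 0.0578), and Csnk1e was not called without the 3 libraries poor in slow-fibre RNA (adjusted p 0.103).

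**Figure D2:**
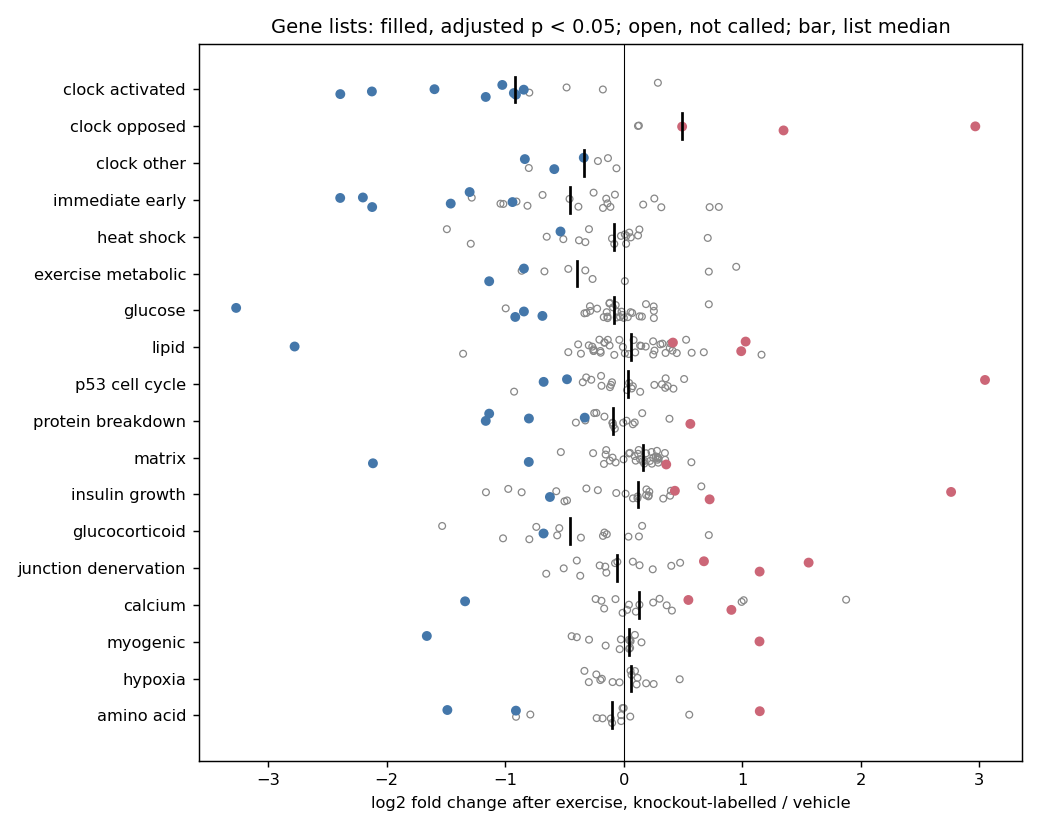
Log2 fold change (knockout-labelled over vehicle, after exercise) of every tested member of the gene lists, with called members filled, the others open, and a bar at each list median. The clock-activated genes lie mostly below 0, with 8 of 12 called lower, and the clock genes opposed to them lie above 0.

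Of 28 early response genes, a class known to respond to running within the hour, 25 passed the count filter. Whether each was induced by exercise in these libraries was not tested. Of the 25, 6 were called lower and 0 higher, with a median log2 ratio of -0.46, where 3.75% of all tested genes were called lower. Lower ranges that did not overlap were found for 7 of the 25, and for 3.59% of all tested genes. Sik1, a salt-inducible kinase gene, stood at 70.8, 74.9, 94.1, 102 and 48.8 CPM in vehicle and at 34.1, 16.4, 37.6, 16.9 and 36.3 CPM in the knockout-labelled group (log2 ratio -1.46 with an SE of 0.28 and an adjusted p of 0.00339). The orphan nuclear receptor gene Nr4a2 stood at 26.5, 11.4, 25.2, 19.0 and 7.78 CPM in vehicle and at 7.29, 2.16, 4.70, 1.89 and 4.37 CPM in the knockout-labelled group (log2 ratio -2.12 at an adjusted p of 0.00344). Fosb, of the AP-1 family, had 16 to 46 counts in vehicle and 0 to 6 counts in knockout-labelled libraries (log2 ratio -2.39 at an adjusted p of 0.00228). For all 3 the groups did not overlap. Junb, also of AP-1, was at 8.21, 19.6, 16.9, 70.3 and 8.62 CPM in vehicle and at 5.21, 7.34, 4.49, 5.13 and 4.63 CPM in the knockout-labelled group, so that the vehicle spread was wide (log2 ratio -2.20 at an adjusted p of 0.0105). Without vehicle replicate 4, the highest library, the log2 ratio was -1.31 (adjusted p 0.00358). With only the 10 exercised libraries in the model Junb was not called (adjusted p 0.107). It shares exon sequence with Prdx2, and it was not called without the 3 libraries poor in slow-fibre RNA (adjusted p 0.0799). Nr4a1 stood at 395 ± 75.9 and 206 ± 10.1 CPM (log2 ratio -0.94 at an adjusted p of 0.0254), and this call was lost in 3 of 10 fits that left out a library, to an adjusted p of at most 0.0648 without vehicle replicate 4. Ier5 was 20.3 ± 4.11 and 8.11 ± 4.07 CPM (log2 ratio -1.30 at an adjusted p of 0.00817), and was not called with only the 10 exercised libraries in the model (adjusted p 0.0634).

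**Figure D3:**
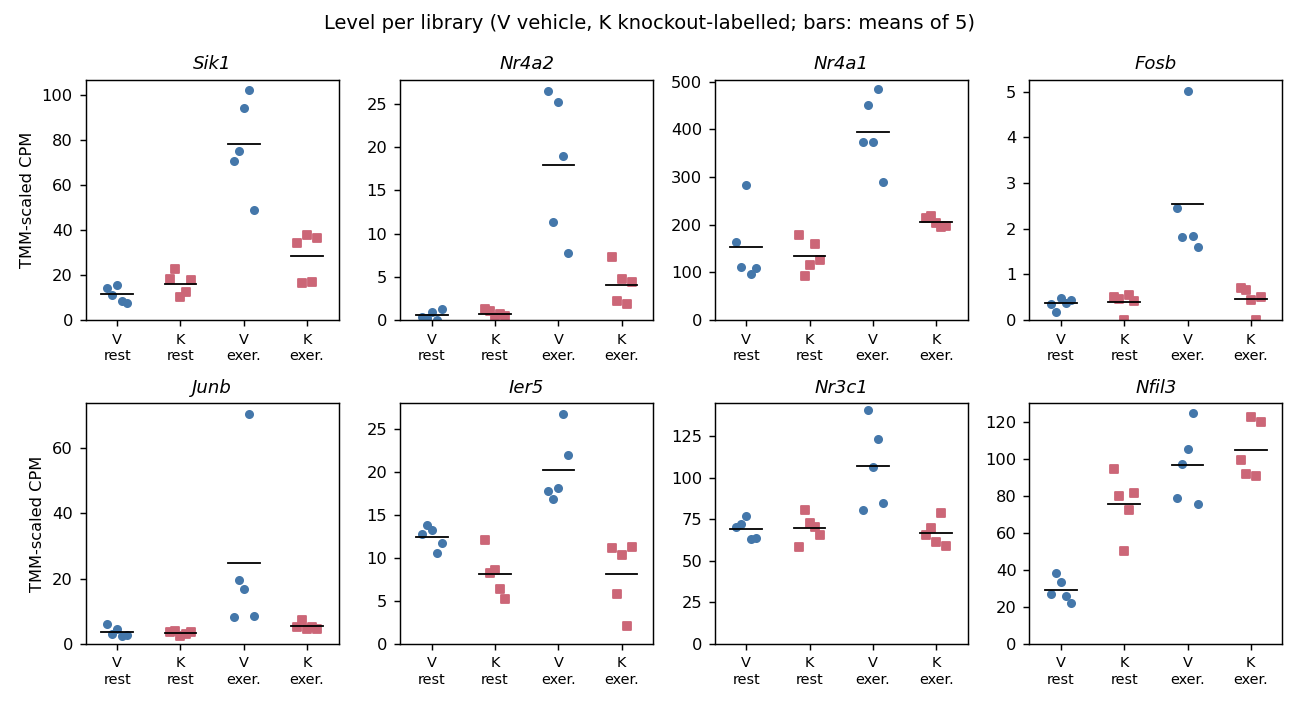
TMM-scaled CPM of 6 early response genes, Nr3c1 and Nfil3 in the 4 groups of 5 libraries, with bars at the means (V vehicle, K knockout-labelled). In vehicle, the exercised libraries of Sik1 (48.8 to 102 CPM) lie above the resting ones (7.55 to 15.7 CPM), whereas exercised knockout-labelled libraries hold 16.4 to 37.6 CPM.

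At rest, 0 of the 25 early genes were called. Sik1 was 11.4 ± 3.51 CPM in resting vehicle and 16.1 ± 4.93 CPM in resting knockout-labelled muscle, Nr4a2 was 0.568 ± 0.565 and 0.737 ± 0.392 CPM, and Fosb was 0.366 ± 0.119 and 0.384 ± 0.219 CPM. Junb was 3.74 ± 1.43 and 3.34 ± 0.638 CPM. The log2 differences at rest of Sik1, Nr4a2, Fosb and Junb were 0.49, 0.37, 0.09 and -0.16. Ier5, also called after exercise, had 86 to 155 counts in resting vehicle and 49 to 97 in resting knockout-labelled libraries. Nr4a1 had 787 to 2307 and 812 to 1471 counts. These genes were named for a difference after exercise, so a smaller difference at rest is partly built into the choice. Whether the difference between knockout-labelled and vehicle muscle itself differed between rest and exercise was tested as an interaction, and 0 of 13560 genes were called, with 791 (5.83%) at an unadjusted p under 0.05. The log2 interactions of Sik1, Nr4a2, Fosb and Junb were -1.95, -2.49, -2.49 and -2.04, with adjusted p values of 0.595, 0.779, 0.728 and 0.78. Nr4a3 (-1.28), Fos (-0.46) and Egr1 (0.80) were not called after exercise.

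The 4 smallest interaction p-values belonged to Nfil3, Mrps6, Sik1 and Dock8. They were taken among genes with a mean log2 CPM of at least 1, called or not, leaving out clone, predicted-gene and date names. Nfil3, a repressor that competes for D-boxes, was 29.4 ± 6.46 CPM in resting vehicle and 96.6 ± 20.3 CPM in exercised vehicle, against 76.0 ± 16.3 and 105 ± 15.4 CPM in the knockout-labelled group. The knockout-labelled group differed from vehicle at rest by 1.37 on the log2 scale (adjusted p 3.01e-05) but only by 0.12 after exercise (adjusted p 0.758), and the interaction was -1.25 (unadjusted p 3.76e-05, adjusted p 0.275). Mrps6, a mitochondrial ribosomal protein gene that shares exons with Slc5a3, went from 3.59 ± 0.299 to 5.56 ± 0.297 CPM in vehicle, while the knockout-labelled group went from 4.64 ± 0.711 to 2.98 ± 0.842 CPM, an interaction of -1.27 (adjusted p 0.275). Dock8, a guanine nucleotide exchange factor, had an interaction of 1.32 (adjusted p 0.671). DESeq2 called 3 interactions, Nfil3 (adjusted p 0.00351), Sik1 (0.00351) and Mrps6 (0.0227). edgeR called only Nfil3 when replicate 3 of the resting knockout-labelled group was left out (adjusted p 0.0385).

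Across all genes, 523 (3.86%) were called at rest, 244 higher (1.8%) and 279 lower (2.06%), and 332 of these were called after exercise too, each in the same direction. For these 332 genes the median size was 0.74 after exercise and 0.70 at rest on the log2 scale. The other 538 genes called after exercise had a median size of 0.57 after exercise and 0.24 at rest, and 475 had the same sign at rest. Those 538 were selected for their difference after exercise, so a smaller difference at rest is built into the selection. The resting and exercised comparisons share no sample.

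**Figure D4:**
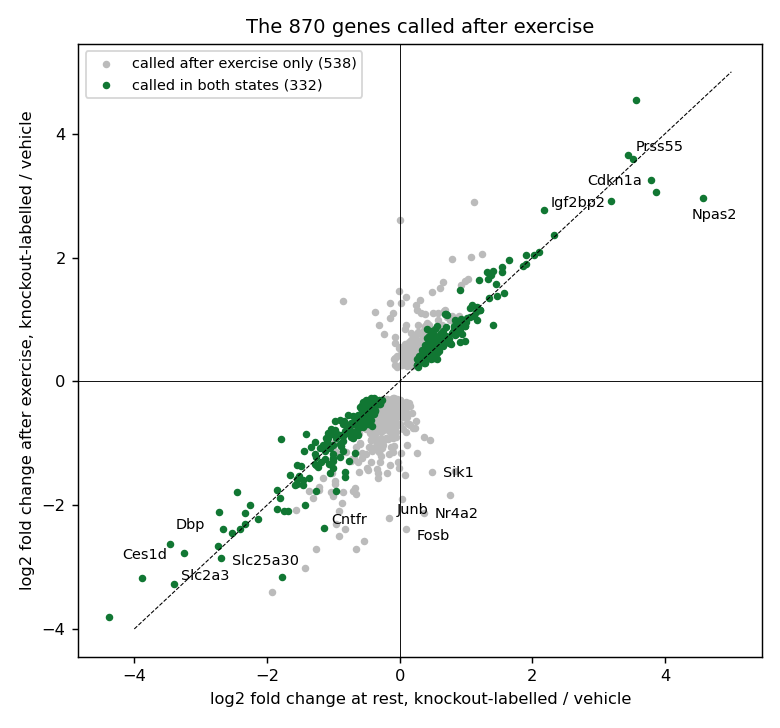
Log2 fold change at rest (horizontal) against log2 fold change after exercise (vertical), knockout-labelled over vehicle, for the 870 genes called after exercise. Of these, 332 were also called at rest (green) and 538 were not (grey). The dashed line marks equal values. Sik1, Fosb and Nr4a2 lie below 0 after exercise and near or above 0 at rest.

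Of 34 tested genes of glucose handling, 4 were called lower and 0 higher, with a median log2 ratio of -0.08, where 3.75% of all tested genes were called lower. Besides Slc2a3 these were Pfkm, the muscle phosphofructokinase, Hk2, the insulin-responsive hexokinase, and Fbp2, the muscle fructose bisphosphatase. Pfkm stood at 4425, 5226, 3841, 4336 and 4123 CPM in vehicle and at 2714, 2426, 2658, 3088 and 2761 CPM in the knockout-labelled group, without overlap (log2 ratio -0.69 with an SE of 0.12 and an adjusted p of 0.000828). Hk2 stood at 877, 548, 752, 507 and 601 CPM in vehicle and at 413, 221, 480, 270 and 447 CPM in the knockout-labelled group, also without overlap (log2 ratio -0.84 at an adjusted p of 0.00527). Its call was lost with only the 10 exercised libraries in the model (adjusted p 0.063). Fbp2 went from 38.6 ± 10.9 to 20.5 ± 4.83 CPM with overlapping ranges (log2 ratio -0.92). With the slow-fibre score as a covariate 8 members were called lower. Pfkm overlaps exons of Senp1. Of 10 metabolic genes that exercise is known to induce, some of them shared with the glucose list, 2 were called lower, Hk2 and Foxo1. Foxo1 was 71.1 ± 29.4 and 32.2 ± 9.88 CPM (log2 ratio -1.14 at an adjusted p of 0.0245), and it lost its call in 4 of 10 fits that left out a library, to an adjusted p of at most 0.0674 without vehicle replicate 4, and without the 3 libraries poor in slow-fibre RNA (adjusted p 0.262).

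In lipid handling, 3 of 44 genes were called higher and 1 lower, with a median of 0.06, against 2.67% called higher and 3.75% called lower of all tested genes. Agpat3, an acyltransferase of phospholipid synthesis, stood at 108, 100, 116, 98.9 and 108 CPM in vehicle and at 226, 201, 245, 198 and 215 CPM in the knockout-labelled group (log2 ratio 1.03 with an SE of 0.08 and an adjusted p of 5.18e-09). Pnpla2, the main triglyceride lipase, rose by 0.42 and Pnpla3 by 0.99, and each lost its call in 7 of 10 fits that left out a library, to at most 0.091 without knockout-labelled replicate 5 for Pnpla2 and 0.0869 without knockout-labelled replicate 1 for Pnpla3. With the slow-fibre score as a covariate, 10 members were called higher.

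Structural and signalling genes of muscle gave small counts with a few large changes. Tcap, the titin cap protein of the Z-disc, stood at 2586, 2470, 2819, 2230 and 2591 CPM in vehicle and at 1095, 398.5, 1018, 182.6 and 1318 CPM in the knockout-labelled group. The lowest values were in knockout-labelled replicates 4 and 2, and the call held without the 3 libraries poor in slow-fibre RNA (log2 ratio -1.66 at an adjusted p of 0.00619, and -1.16 without them, adjusted p 1.15e-05). It was not called with only the 10 exercised libraries in the model (adjusted p 0.0901). Myod1, a myogenic regulator, was the other called member of 15 myogenic genes, at 26.6, 41.2, 21.6, 19.6 and 20.2 CPM in vehicle and at 49.6, 74.3, 40.6, 90.8 and 31.3 CPM in the knockout-labelled group (log2 ratio 1.15 at an adjusted p of 0.0239). Its ranges overlapped, and the call was lost in 6 of 10 fits that left out a library, to at most 0.0711 without knockout-labelled replicate 4. Among genes of the neuromuscular junction, 3 of 17 were called higher and 0 lower, where 2.67% of all tested genes were called higher. Chrna1, the alpha subunit of the acetylcholine receptor, went from 11.8 ± 2.22 to 35 ± 19.0 CPM (log2 ratio 1.56 at an adjusted p of 0.00111). Its highest values, 65.5 and 40.3 CPM, were in knockout-labelled replicates 4 and 2, and without the 3 libraries poor in slow-fibre RNA the log2 ratio was 0.91 (adjusted p 0.00478). Chrnb1, its beta subunit, and Colq, the collagen tail of acetylcholinesterase, had log2 ratios of 1.15 and 0.68, and were lost in 3 and 5 of the 10 fits, to at most 0.0617 without vehicle replicate 1 and 0.115 without knockout-labelled replicate 4. In calcium handling, Mrln, the micropeptide that inhibits the calcium pump, went from 32.7 ± 10.1 to 61.5 ± 8.84 CPM (log2 ratio 0.91), the channel gene Cacna1s rose by 0.55, and Itpr1, a calcium release channel, fell from 53.2 ± 13 to 21.1 ± 3.40 CPM (log2 ratio -1.34 at an adjusted p of 2e-05), so 2 of 19 were higher and 1 lower. A model holding the slow-fibre score as a covariate called 6 higher. Cacna1s overlaps exons of Gm37759.

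Matrix genes numbered 37, of which 1 was called higher (Lamb2, a laminin chain) and 2 lower. Over all tested genes 2.67% were called higher and 3.75% lower, which is the background for this and the following groups. Aebp1, a secreted collagen-binding protein, stood at 118, 123, 120, 137 and 157 CPM in vehicle and at 31.2, 27.3, 29.5, 30.8 and 32.0 CPM in the knockout-labelled group, the tightest difference among these genes (log2 ratio -2.12 with an SE of 0.11 and an adjusted p of 1.17e-11). Adamts9, a metalloprotease gene, fell by 0.80 on the log2 scale. In the insulin and growth factor group, 3 of 26 were called higher, Igf2bp2, Igf2r (0.43) and the insulin receptor adaptor Grb10 (0.73), and Akt1 was called lower (-0.62). In amino acid handling, Slc7a2, a cationic amino acid transporter, went from 85.4 ± 20.5 to 30.5 ± 6.06 CPM (log2 ratio -1.49 with an SE of 0.18 and an adjusted p of 2e-05). Slc38a4 (1.15) and Glul (-0.91) were lost in 3 and 6 of 10 fits that left out a library, to at most 0.0612 without knockout-labelled replicate 4 and 0.107 without vehicle replicate 2. With 15 genes tested, 1 was called higher and 2 lower. In the p53 and cell cycle group, Cdkn1a was called higher and Ccnd3 (-0.48) and Phlda3 (-0.68) lower, of 24 tested, and the latter pair lost their calls in 3 and 4 of 10 fits that left out a library (at most 0.0654 without knockout-labelled replicate 2 and 0.0844 without knockout-labelled replicate 4) and without the 3 libraries poor in slow-fibre RNA (adjusted p 0.204 and 0.286). In protein breakdown, 1 of 20 was called higher (Fbxo40, 0.56) and 4 lower, Usp2, Map1lc3a (-0.80), Foxo1 and Fbxo31 (-0.33, at most 0.0851 without knockout-labelled replicate 4). Without the 3 libraries poor in slow-fibre RNA, Nr4a1, Lamb2, Glul, Slc38a4, Colq, Pnpla3, Hspe1, Fbxo31 and Myod1 were not called either, at adjusted p values of 0.061 to 0.262. With only the 10 exercised libraries in the model, Foxo1, Pnpla2, Pnpla3, Fbxo31, Map1lc3a, Chrnb1, Colq, Myod1 and Glul were not called (adjusted p 0.0508 to 0.125). Library size as the only scaling ended the calls of Hspe1, Pnpla2, Ccnd3 and Fbxo31 (0.0613 to 0.122), no filter on low counts those of Nr4a1, Phlda3, Chrnb1, Myod1 and Glul (0.0558 to 0.0859), and limma-voom those of Pnpla3 (0.0586) and Colq (0.0526). Exons of Foxo1, Glul, Ccnd3, Hspe1, Cry2, Rora and Adamts9 overlap exons of a gene on the opposite strand, so their counts may include its reads.

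Glucocorticoid-responsive genes gave 1 call among 16, the receptor gene Nr3c1, at 80.7, 141, 107, 123 and 84.4 CPM in vehicle and at 65.7, 69.4, 61.5, 78.5 and 58.8 CPM in the knockout-labelled group, with adjoining ranges that did not overlap (log2 ratio -0.68 with an SE of 0.13 and an adjusted p of 0.00148). The median of the 16 was -0.45. DESeq2 called 6 of them lower. Heat-shock genes gave 1 call of 19, Hspe1 (-0.54), which was lost in 6 of 10 fits that left out a library (at most 0.0978 without knockout-labelled replicate 4), and the 15 hypoxia genes gave 0 calls, with a median of 0.06.

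The genes called lower had shorter exonic sequence than those called higher. Median exonic length in GENCODE M21 was 3385.5 bases for the genes called lower and 5203 bases for those called higher, against 4189.5 bases for all tested genes with a length. Among the shortest of 5 equal groups of genes by length, 47 were called higher and 152 lower after exercise, whereas at rest 38 were higher and 38 lower. Among the longest, 111 were higher and 81 lower after exercise, and 82 and 74 at rest. In families listed after the values were seen, 16 of 81 ribosomal protein genes were called lower and 0 higher (median -0.22), against 0 in either direction at rest (median -0.07). Of all tested genes, 3.75% were called lower after exercise and 2.06% at rest. Rpl37a was 124 ± 11.6 CPM in vehicle and 66.2 ± 15.2 CPM in the knockout-labelled group, and Rps16 was 87.0 ± 7.44 and 60.3 ± 5.50 CPM. Of 81 nuclear genes of the respiratory chain, 6 were called lower and 0 higher (median -0.13), against 0 lower and 3 higher at rest (median 0.19). Of 22 genes of the mitochondrial genome, 5 were called lower and 0 higher (median -0.50), against 0 of the 22 at rest (median -0.13). Among the 5 were the ribosomal RNA genes mt-Rnr1 and mt-Rnr2, both at log2 ratios of -1.04. The mitochondrial share of counts was 11.7 ± 1.72% in vehicle and 10.6 ± 1.46% in knockout-labelled libraries. Its ranges overlapped (exact permutation p 0.317, adjusted p 0.686). With the genes of the mitochondrial genome left out of the fit, 859 genes were called after exercise, 355 higher and 504 lower. The part of the ribosomal protein and respiratory chain families in the counts of lower genes was not tested.

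**Figure D5:**
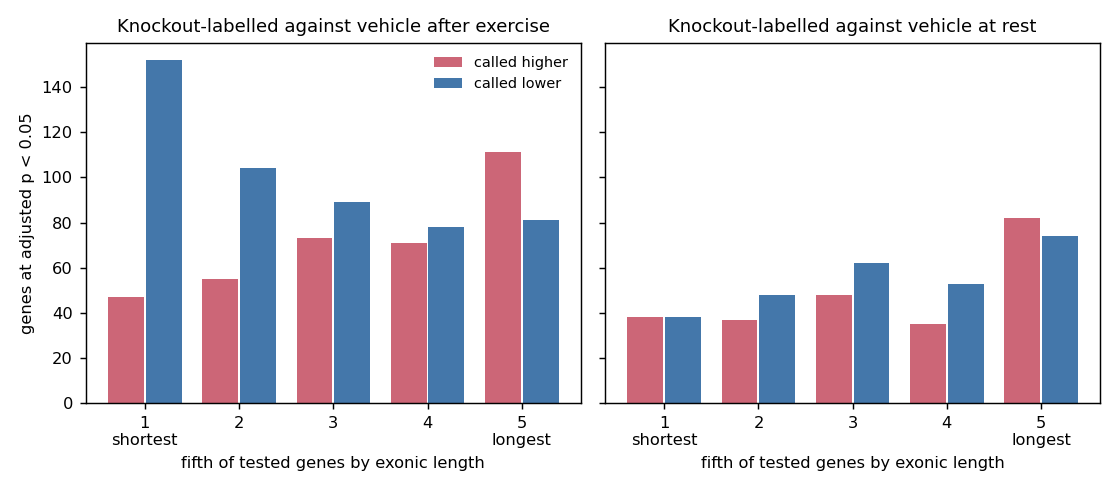
Genes called higher and lower (adjusted p under 0.05) in each of 5 equal groups by exonic length, after exercise and at rest. After exercise 152 of the shortest genes were lower and 47 higher, and among the longest 81 were lower and 111 higher.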

How the data were processed

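The authors deposited 1 table of whole-number read counts per gene for 20 gastrocnemius RNA samples. Extraction used Trizol and a Qiagen kit and library construction an Illumina kit, per the labels' protocols. The submitters' processing notes name STAR 2.7.8a, Partek, DESeq2 and the builds mm10 and GRCm39 without saying what each was used for. The counting program, strand setting and annotation are not given in the sources used here.

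Of 53311 table entries, 106 had a repeated symbol and 27 a symbol turned into a date. filterByExpr of edgeR 4.0.16 with a minimum of 10 counts kept 13560 genes holding 99.83% of counts. In R 4.3.3, a robust quasi-likelihood model with TMM scaling and 1 mean per group was fitted to all 20 samples, and the differences between knockout-labelled and vehicle samples after exercise and at rest and their interaction were tested, with Benjamini-Hochberg adjustment. Log2 CPM used a prior count of 2. Single values had exact two-sided permutation tests over 252 relabellings, whose smallest p is 0.00794. On simulated counts of the comparison after exercise, 79.8% of 99 genes changed by 1 and 96% of 100 genes changed by 2 on the log2 scale were recovered among 13363 genes, and 5.91% of 186 calls were false. The simulation drew each gene independently, so it lacked variation shared between genes, such as that of the slow-fibre markers. Its rates may therefore not hold for the calls on the real counts.

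The genes named were the 12 largest rises and 12 largest falls among called genes with a mean log2 CPM of at least 1, ranges that did not overlap and a symbol that is not a clone, predicted-gene or date name, plus the targeted gene, the 4 such genes with the smallest interaction p, and members of 18 gene lists. There were 14 marker lists. Values of 1 listed gene are not reported here. The members and lists were chosen with earlier results of these data known. The families of ribosomal, respiratory chain and mitochondrial genes, the fit without the 3 exercised libraries poor in slow-fibre RNA, and a few genes named for the length pattern and in the closing section were chosen after values were seen. Exon overlaps and exonic lengths came from GENCODE M21, and promoter sequences from RefSeq GRCm38.p6. Alternatives covered scaling, filters, DESeq2 1.42.0, limma-voom (limma 3.58.1), the samples in the model and the slow-fibre score. They also covered the replicate block, thresholds, mitochondrial genes left out and each replicate left out.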

Additional observations from a re-analysis of the deposited data

Results flagged for a closer look

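Of 88 groups of 5 libraries, 5 held a library that stood apart by Dixon's test, where chance gives about 1 in 20 groups. For genes the test used log2 CPM, so its gap over range does not follow from the CPM printed here. Wsb1 was 13.6 CPM in vehicle replicate 4, against 7.78 to 7.97 CPM in the other 4 vehicle libraries (gap over range 0.958). Gpc4 was highest in vehicle replicate 5, at 14.9 CPM against 12.1 to 12.6 CPM (0.784). Tmem132b was lowest in knockout-labelled replicate 5, at 0.343 CPM against 1.39 to 1.94 CPM (0.78). Cyp2t4 was highest in knockout-labelled replicate 3, at 2.08 CPM against 0.694 to 0.810 CPM (0.871). The score of smooth muscle and pericyte markers was lowest in vehicle replicate 2 (0.843), one of the libraries low in slow-fibre RNA.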

How the results depend on the processing

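The count of genes called after exercise was 870. It was 567 with only the exercised groups in the model, 388 at an adjusted p under 0.01, 217 for changes of at least 1 on the log2 scale, 1416 with the slow-fibre score as a covariate and 411 without the 3 exercised libraries poor in slow-fibre RNA, an alternative chosen after seeing the data. Leaving out each replicate in turn gave 642 to 841 genes after exercise. DESeq2 gave 1138 and limma-voom 878. At rest the count of 523 became 267 at an adjusted p under 0.01, 134 for changes of at least 1 on the log2 scale and 869 with the slow-fibre score, and 367 to 464 with a replicate left out. The interaction count of 0 became 3 with DESeq2 and ran from 0 to 1 with a replicate left out. The cause of these shifts was not tested. With the replicate number as a block, 824 genes were called after exercise, 518 at rest and 0 for the interaction, and of the 73 called genes followed Foxo1 (adjusted p 0.0635) and Colq (0.0551) were not called. The numbers share no stated litter or batch, the correlations of same-numbered exercised libraries ran from 0.018 to 0.44, and no exercised sample correlated best with its own number. Of the 73, 34 kept their call in every alternative run, 39 lost it in at least 1 and 0 reversed. The alternatives include the 2 stricter thresholds, so part of the 39 was fixed by the main values. Cry1, Cry2, Hlf, Per2 and Mrps6, for example, were lost only where a change of at least 1 was required. Of the 73, 59 kept their call in all fits that left out a library. Depth limits the fold changes of Prss55, Igf2bp2, Npas2, Fosb, Tmem132b, Cyp2t4, Ciart and Slc2a3 among others, whose lower group held few counts per library.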

Other observations

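Several abundant or signalling genes outside the lists also differed, and were chosen after their values were seen. Mylk4, a kinase of the myosin light chain kinase family, stood at 2536, 3465, 2299, 3299 and 3521 CPM in vehicle and at 882, 564, 820, 655 and 1185 CPM in the knockout-labelled group (log2 ratio -1.88 with an SE of 0.22 and an adjusted p of 1.41e-05), and at rest its log2 ratio was -1.80. Ampd1, the muscle AMP deaminase, went from 988 ± 281 to 1849 ± 466 CPM (log2 ratio 0.90 at an adjusted p of 0.0143), with 0.45 at rest (adjusted p 0.348). Bcl2, an inhibitor of cell death, went from 10.9 ± 2.10 to 3.74 ± 0.228 CPM (log2 ratio -1.54 with an SE of 0.16 and an adjusted p of 8.06e-07). Dmpk, the myotonic dystrophy kinase, rose from 297 ± 41.0 to 486 ± 41.7 CPM (log2 ratio 0.71 at an adjusted p of 2e-05), and Stim1, the sensor of calcium stores, from 244 ± 13.7 to 337 ± 12.9 CPM (log2 ratio 0.47 at an adjusted p of 0.000339). Jak2, a cytokine receptor kinase, fell from 85.3 ± 12.4 to 38.4 ± 7.02 CPM (log2 ratio -1.15 at an adjusted p of 0.000111), and Thra, a thyroid hormone receptor, rose from 54.2 ± 8.06 to 91.1 ± 7.13 CPM (log2 ratio 0.75 at an adjusted p of 0.000144). Groups did not overlap for these genes in the exercised libraries. Thra shares exon sequence with Nr1d1 on the opposite strand, so either count may include reads of the other.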
